A study of Arabidopsis thaliana with 91 samples.

Results

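The sites described here are stretches of the Arabidopsis genome that carried a peak of Myc-tagged JMJ14, a Jumonji-type histone demethylase that removes methyl groups from lysine 4 of histone H3, in all 3 Myc-JMJ14 chromatin immunoprecipitation sequencing (ChIP-seq) lists of the series. To count as a site, peaks of the 3 lists had to overlap one another over 100 bp or more, and no base could lie in a peak of untagged Col-0 plants precipitated with the same Myc antibody, of which 1 list was analysed. The 3 lists covered 865 stretches in common. Of these, 746 reached 100 bp, 83 of which touched an untagged peak and were removed, which left 663 sites. All 50 lists of the series together held 851404 peaks on the 5 nuclear chromosomes. The sites were thus chosen by the presence of Myc-JMJ14 peaks, and their Myc-JMJ14 values are given as a description only. Lengths ran from 101 to 1990 bp with a median of 259 bp, and the longest stretch left out for length was 99 bp. The kept site closest to an untagged peak lay 160 bp from it, and 2 sites lay within 500 bp of one. Chromosomes 1 to 5 held 181, 89, 136, 117 and 140 sites.

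All plants were of the Col-0 ecotype and gave leaf tissue at an age of 4 to 5 weeks. The first Myc-JMJ14 list came from a plant line carrying Myc-JMJ14 alone (1572 peaks, SET6, the submitters' name for a set of libraries). The other lists came from a line that also carried TRBIP1-ZF, a fusion of TRBIP1 to a zinc finger protein designed to bind the FWA promoter (5678 peaks in replicate 1 of SET6 and 3814 in replicate 2 of SET7). The untagged Col-0 list was of SET6 and held 808 peaks, so that the SET7 library was set against an untagged list of another set. The peaks read at the sites came from 29 libraries for H3K4me3 (histone H3 trimethylated at lysine 4, a mark of the 5′ parts of transcribed genes), 6 for H3K14ac (acetylated lysine 14), 7 for the histone variant H2A.Z, and 4 for Myc-tagged ROS1, a DNA glycosylase that removes 5-methylcytosine. Their plants were Col-0, SDG2-ZF lines in Col-0 (the same zinc finger fused to the catalytic domain of the H3K4 methyltransferase SDG2, under the UBQ10 promoter), SDG2(H1866K)cd lines with the changed residue H1866K in that domain, rdd (mutated in ROS1, DML2 and DML3), SDG2-ZF in rdd, rdr6 (mutated in an RNA-dependent RNA polymerase), SunTag-SDG2 in rdr6 with a guide RNA and SDG2 in rdr6 without one. Further plants were fwa (an epiallele with an unmethylated FWA promoter), TRBIP1-ZF in fwa, fwa rdr6, and fwa rdr6 with dCas9-MQ1v, a programmable bacterial DNA methyltransferase, either alone or with TRBIP1. Myc-ROS1 was read in a Myc-ROS1 line and in a Myc-ROS1 line with SDG2-ZF. The labels do not name separate cultures or pools for the replicates, so p-values measure the spread between these libraries only.

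JMJ14 is known in Arabidopsis to act with DNA-binding partners. The related NAC-domain factors NAC050 and NAC052 form complexes with JMJ14 and bind an inverted repeat in which CTTG and CAAG face each other across 5 bases, and the TRB proteins, partners of TRBIP1, bind the telobox, a short stretch of the telomere repeat. H3K4me3 in plants sits over the first part of transcribed genes, and loss of JMJ14 is known for early flowering.

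The NAC palindrome was present in a large part of the sites, and the sequences around it are shown here because the results turn on it. They are those of the 8 palindrome sites with the highest value of the lowest of the 3 peak folds, in that order, and of BGL2, which is taken up again among the defence genes. Lower case marks flanking bases and the spacer, and capitals mark both half-sites. The stretches were read on the plus strand from the RefSeq assembly TAIR10.1, and the sites shown were chosen after their values were seen.
KOR2, a gene of the endoglucanase family, in a coding exon (chr1:24395075-24395117): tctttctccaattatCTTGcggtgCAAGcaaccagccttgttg
TMK1, a receptor kinase gene, in the 3′ UTR (chr1:24634494-24634536): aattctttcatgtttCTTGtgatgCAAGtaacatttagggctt
PTAC16, coding for a protein of the plastid transcription complex, in a coding exon (chr3:17228707-17228749): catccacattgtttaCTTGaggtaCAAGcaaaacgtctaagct
AT2G20970, upstream of the gene (chr2:9009390-9009432): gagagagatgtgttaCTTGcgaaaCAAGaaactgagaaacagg
HPL1, a hydroperoxide lyase gene of green leaf volatile synthesis, in a coding exon (chr4:8837653-8837695): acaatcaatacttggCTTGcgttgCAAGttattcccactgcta
UBC30, a ubiquitin-conjugating enzyme gene, upstream of the gene (chr5:22728574-22728616): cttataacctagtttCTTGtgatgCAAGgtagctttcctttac
MSS3, coding for a calmodulin-like protein, in a coding exon (chr2:17991419-17991461): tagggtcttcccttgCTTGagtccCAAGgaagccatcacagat
AT1G55673, upstream of the gene (chr1:20802800-20802842): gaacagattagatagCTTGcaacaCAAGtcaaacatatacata
BGL2, also called PR2, a pathogenesis-related glucanase gene, in a coding exon (chr3:21189138-21189180): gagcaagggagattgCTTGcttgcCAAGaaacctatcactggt

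A 300 bp window centred on the site held CTTGNNNNNCAAG, which reads the same on both strands, in 188 of the 663 sites, or 28.4% (95% Wilson interval 25.1 to 31.9%, for counting error only). The same windows held it in 51 of 12576 Col-0 H3K4me3 segments without a Myc-JMJ14 peak (0.406%), in 22 of 4966 segments covered by both Myc-ROS1 lists (0.443%), and in 248 of the 27444 windows from 250 bp before to 50 bp after a coding gene start (0.904%). Only 1 of the 83 stretches removed by the untagged list held it (1.20%). The Myc-ROS1, untagged and Myc-JMJ14 lists all came from Myc antibody libraries. Sequence was not used to choose the sites. The share depended on which lists were joined: it was 18.7% of 1606 sites without the Myc-JMJ14 list, 26.2% of 1248 sites without replicate 2 of Myc-JMJ14xTRBIP1-ZF and 26.9% of 703 sites without its replicate 1. Stretches covered by both TRBIP1-ZF lists and by no peak of the line without TRBIP1-ZF held it in 114 of 883 cases (12.9%). Among sites with no peak in any of the 4 Myc-ROS1 lists, 133 of 333 held it (39.9%).

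The spacing was exact. The same half-sites with 0 to 4 or 6 to 12 bases between them were found in 2 to 13 sites each, against 188 with 5 bases, and a spacer of 4 or 6 bases gave 4 and 8 sites. In the Col-0 H3K4me3 segments the count with 5 bases (51) lay within the range of the other spacings (46 to 84). Over the whole genome the spacing of 5 bases was the most frequent, with 4363 copies against 2057 to 2820 for the others. Counted over the whole stretch in place of the 300 bp window, 179 of the 663 sites held the palindrome, 15 of them with 2 copies and 1 with 3. These are not all among the 188: some long sites held a copy only beyond the window, and some short sites had one only outside the stretch. Here and below, sites with the palindrome are the 188 with a copy in the window, so some of the 475 others hold one elsewhere in the stretch. In the 188 sites the palindrome centre was a median of 53.5 bp from the midpoint, and within 100 bp of it in 151 (80.3%). The share changed little with peak strength: it was 4 of the 20 strongest sites, 30.0% of the strongest 100, 28.0% of the strongest 200 and 25.5% of the weakest 200. Sites with and without the palindrome also had like median folds in each list, at 3.75 and 3.61 for Myc-JMJ14, 4.61 and 4.37 for replicate 1 of Myc-JMJ14xTRBIP1-ZF, and 3.05 and 3.09 for its replicate 2.

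**Figure D1:**
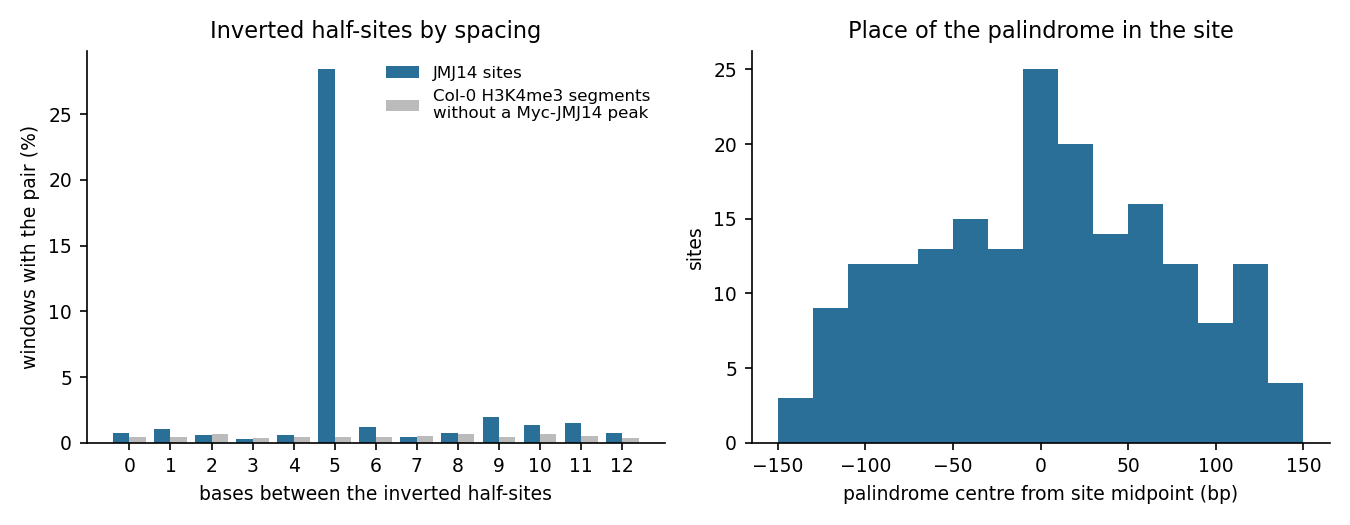
Left, percent of 300 bp windows that held the inverted half-sites, by the number of bases between them, in JMJ14 sites (blue) and in Col-0 H3K4me3 segments without a Myc-JMJ14 peak (grey). Right, number of sites by the distance in bp of the palindrome centre from the site midpoint, in bins of 20 bp. With 5 bases the share was 28.4% of sites, and at every other spacing it was at most 1.96%.

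The bases beside the half-sites were also uneven. Reading both strands of the 188 palindromes, T was the third base before the half-site in 80.1% of cases, against 39.7% among palindromes outside every Myc-JMJ14 peak, and the second base before it was T in 55.9% against 36.6%. The third base was C or G in only 1.86% and 2.66%. The T is seen in the printed stretches, as in tttCTTG at TMK1 and ttaCTTG at PTAC16 and AT2G20970.

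The whole genome held 4363 copies of the palindrome, of which 196 lay in a site (4.49%), although the sites made up 0.185% of the genome. Replicate 1 of Myc-JMJ14xTRBIP1-ZF, the longest list, had a peak over 28.3% of all copies, the Myc-JMJ14 list over 8.39% and replicate 2 over 8.53%. The untagged list had one over 0.298%, and the Myc-ROS1 lists over 1.72 and 2.54%. The flanking T separated the copies: of the 1273 copies with T as the third base before both half-sites, 55.5% lay under a peak of replicate 1 of Myc-JMJ14xTRBIP1-ZF, against 25.3% of the 1827 copies with T at one end and 5.30% of the 1263 copies with T at neither. In the Myc-JMJ14 list the same shares were 18.1, 6.08 and 1.9%, and in replicate 2 they were 16.9, 7.28 and 1.9%. In the Myc-ROS1 lists they did not follow the flank, at 1.49, 1.97 and 1.58% in replicate 1. This flank was noted in the sites and is no independent evidence. The share under a peak also differed by place: 36.4% of copies within 500 bp of a coding gene start and 33.9% of those elsewhere in a coding gene region lay under a peak of replicate 1, against 4.11% of those in pseudogenes and 6.81% of those between genes. Place was not separated from the flank, and its part was not tested. Copies inside a Col-0 H3K4me3 segment lay in a site in 47 of 329 cases (14.3%), and copies outside one in 149 of 4034 (3.69%).

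A single half-site with the flank, TTNCTTG on either strand, was present in 57.3% of sites, and in 218 of the 475 sites without the palindrome (45.9%), against 24.5% of the Col-0 H3K4me3 segments, 23.3% of the Myc-ROS1 segments and 25.6% of coding gene starts. The stretches removed by the untagged list held it in 41.0% of cases. This shorter motif was chosen after the flank was seen.

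The telobox was about as frequent in the sites as in Col-0 H3K4me3 segments without a Myc-JMJ14 peak. It was more frequent in the sites than at coding gene starts or in Myc-ROS1 segments. AAACCCTA was present on one of the strands in 80 sites, or 12.1% (Wilson interval 9.80 to 14.8%), against 13% of the Col-0 H3K4me3 segments, 6.22% of coding gene starts and 3.6% of the Myc-ROS1 segments. With the shorter core AACCCTA, which AAACCCTA contains, the shares were 19.8, 17.8, 8.83 and 5.64%. The stretches covered only in the TRBIP1-ZF line, with its TRBIP1 transgene, held AAACCCTA in 8.38%. Of the 188 palindrome sites, 20 also held a telobox (10.6%). The 6 strongest sites with a telobox are printed on the strand that reads AAACCCTA, with the telobox in capitals and flanks in lower case.
KCS1, a very-long-chain fatty acid synthase gene, in a coding exon (chr1:58135-58172, minus strand): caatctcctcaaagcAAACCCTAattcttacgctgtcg
FBA2, a plastid fructose-bisphosphate aldolase gene, in a coding exon (chr4:18164839-18164876, plus strand): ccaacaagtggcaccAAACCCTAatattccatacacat
AT1G35350, in a coding exon (chr1:12984233-12984270, minus strand): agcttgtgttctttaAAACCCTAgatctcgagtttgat
IAGLU, a glucosyltransferase gene of auxin metabolism, in a coding exon (chr4:8878221-8878258, plus strand): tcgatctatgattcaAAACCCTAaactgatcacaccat
LOX3, a lipoxygenase gene of jasmonate synthesis, in a coding exon (chr1:5979061-5979098, minus strand): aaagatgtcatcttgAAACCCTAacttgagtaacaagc
AT2G35935, upstream of the gene (chr2:15083295-15083332, plus strand): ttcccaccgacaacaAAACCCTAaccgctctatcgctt

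The other promoter motifs were rarer. The site II element TGGGCC was present in 9.20% of sites, against 2.70% of Col-0 H3K4me3 segments, 9.02% of Myc-ROS1 segments and 15.5% of coding gene starts. The G-box CACGTG was present in 4.83%, against 2.69, 16.8 and 7.68%. The GAGA repeat CTCTCTCT was present in 7.39%, against 9.18, 19.1 and 7.78%, and the TATA box TATATAAA in 2.71%, against 1.59, 5.80 and 12.3%. All were searched on both strands. None of these 4 motifs, nor the telobox, stood as far from all comparison regions as the palindrome did.

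Sites were ordered by the lowest of their 3 folds, a rank that asks for a high value in each list and not for the highest in any. By this order the first site lay over CAB1, a gene for a chlorophyll a/b-binding protein of the light-harvesting antenna, with folds of 7.86 in the Myc-JMJ14 list, 8.15 in replicate 1 and 6.96 in replicate 2 of Myc-JMJ14xTRBIP1-ZF. CAB1 has near-identical neighbours, so its reads and those of CAB2 may be shared between copies. The fold is the authors' enrichment of the peak over its local surroundings, and its scale differs between lists, so this order mixes scales and is a description. The highest fold within a list was that of UBQ10, a polyubiquitin gene, at chr4:2718730-2720107, with 25.6 in the Myc-JMJ14 list and 21.9 in replicate 1 of Myc-JMJ14xTRBIP1-ZF but 3.01 in replicate 2. UBQ10 was looked up after its values were seen. The UBQ10 promoter is part of the vector of the SDG2-ZF transgene, and the paper names the same vector for TRBIP1-ZF. Whether the Myc-JMJ14 plants carry further copies of this promoter, and the part of that in the folds, was not tested. In replicate 2 the highest fold was that of the lncRNA gene AT2G08665, at 9.32. The palindrome site in KOR2 came second, with 8.53, 11.1 and 6.17 in the same order of lists. It had an H3K4me3 peak in 1 of 29 libraries, no H3K14ac or Myc-ROS1 peak, and an H2A.Z peak in 5 of 7 libraries. At BLH1, a BEL1-type homeodomain gene, the folds were 9.03, 7.90 and 5.62, and the site lay in a coding exon 3003 bp from the gene start. At the tRNA gene AT1G50100 they were 8.81, 10.0 and 5.37, and no library of the 3 histone features had a peak there. TMK1 followed with 5.31, 7.87 and 5.79, the site lying 3153 bp from the start in the 3′ UTR. CAF1a, coding for an mRNA deadenylase, had 5.30, 5.60 and 9.30. ERO1, coding for an endoplasmic reticulum oxidoreductin that drives disulfide formation, had the highest Myc-JMJ14 fold of the first 20 sites in this order, and 11.3 and 5.19 in replicates 1 and 2, at a site upstream of its start.

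**Figure D2:**
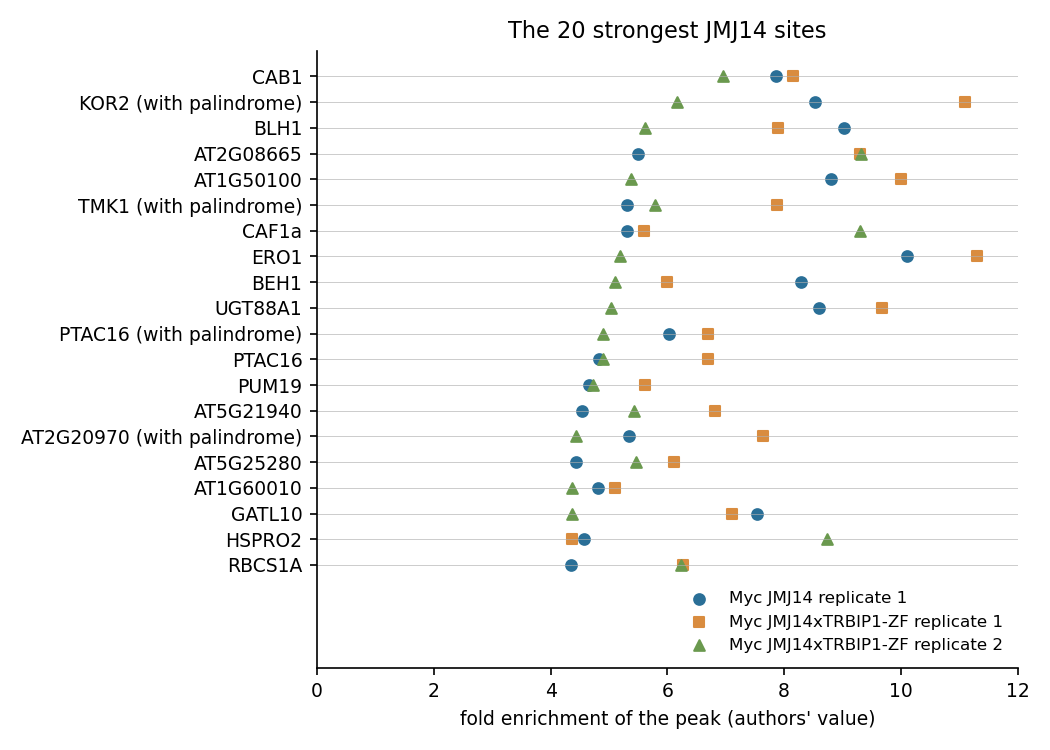
Fold enrichment of the peak, as given by the authors, at the 20 sites with the highest lowest-fold, in Myc JMJ14 (circles), Myc JMJ14xTRBIP1-ZF replicate 1 (squares) and replicate 2 (triangles). CAB1 had 7.86, 8.15 and 6.96, and the 4 sites with the palindrome in their 300 bp window are marked in the labels. The sites were chosen on these values.

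Of these 20 sites, the remaining ones lay over BEH1, a homolog of the brassinosteroid factors BES1 and BZR1, UGT88A1, a glucosyltransferase gene, PTAC16 with 2 sites, PUM19, GATL10, HSPRO2, RBCS1A, the gene for a Rubisco small subunit, the lncRNA gene AT2G08665, and AT5G21940, AT2G20970, AT5G25280 and AT1G60010. Their lowest folds ran from 5.50 down to 4.35. CAB1, AT2G08665, CAF1a, AT5G21940, AT5G25280, HSPRO2 and RBCS1A had an H3K4me3 peak in all 29 libraries and a Myc-ROS1 peak in at least 3 of 4 lists. KOR2, TMK1, PUM19 and AT2G20970 had an H3K4me3 peak in 1, 2, 5 and 5 libraries and a Myc-ROS1 peak in none. Other sites of the 20 did not follow this contrast. UGT88A1 had an H3K4me3 peak in 20 libraries and no Myc-ROS1 peak, and ERO1 had no H3K4me3 peak and a Myc-ROS1 peak in all 4 lists. Over all 663 sites the lowest fold had a median of 2.88 and ran from 1.84 to 6.96. The median fold at the sites was 3.65 against 3.28 over the whole Myc-JMJ14 list, 4.43 against 2.72 in replicate 1 and 3.08 against 2.70 in replicate 2. The sites took up 648 of 1572, 600 of 5678 and 621 of 3814 peaks, so that 1 peak could hold more than 1 site. NIA2, a nitrate reductase gene, and AT1G56220 each had 4 sites, and CAT3, a catalase gene, PMI1, PHOT1, a blue light receptor gene, and PTAC16 each had 3. FWA, the target of the zinc finger, was no site: the Myc-JMJ14 list had no peak there, while both TRBIP1-ZF lists had one in its gene region, with folds of 4.44 (chr4:13038099-13038566) and 4.37 (chr4:13038177-13038590). The JMJ14 gene was no site either, with 4, 7 and 0 peaks in the 3 lists and 1 in the untagged list.

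Most sites lay in gene regions, and fewer of them were close to gene starts than of the H3K4me3 segments. Of the 663 midpoints, 215 (32.4%) had a coding gene start within 500 bp, 422 (63.7%) were in another part of a coding gene region, 7 in a pseudogene, 7 in another gene and 12 between genes. Of the 15154 Col-0 H3K4me3 segments, 65.9% were within 500 bp of a coding start, and of the 4966 Myc-ROS1 segments 56.3%. Conversely, 36.5% of site midpoints were within 500 bp of a coding gene end, against 14.8 and 22.6% of those segments. Relative to the nearest coding start, the lower and upper quartiles of the sites were -2 and 1142 bp, with a median of 550 bp downstream. The quartiles were 297 and 550 bp for H3K4me3 segments (median 396 bp) and -166 and 510 bp for Myc-ROS1 segments (median 177 bp). In terms of gene parts, 378 midpoints were in a coding exon, 125 upstream of the gene, 52 in a 3′ UTR, 52 in an intron and 24 in a 5′ UTR. The 509 midpoints inside their coding gene were spread along its length, with 92, 104, 123, 102 and 88 in successive quintiles from start to end. Palindrome sites and other sites were placed alike, with 29.3 and 33.7% at starts, 55.3 and 57.7% in coding exons, and medians of 548 and 553 bp from the nearest start. All positions are descriptions with no test. A gene region was the gene and the 1 kb before its start, and the largest overlap decided which gene a site was given to, which gave 597 genes, 557 of them coding.

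**Figure D3:**
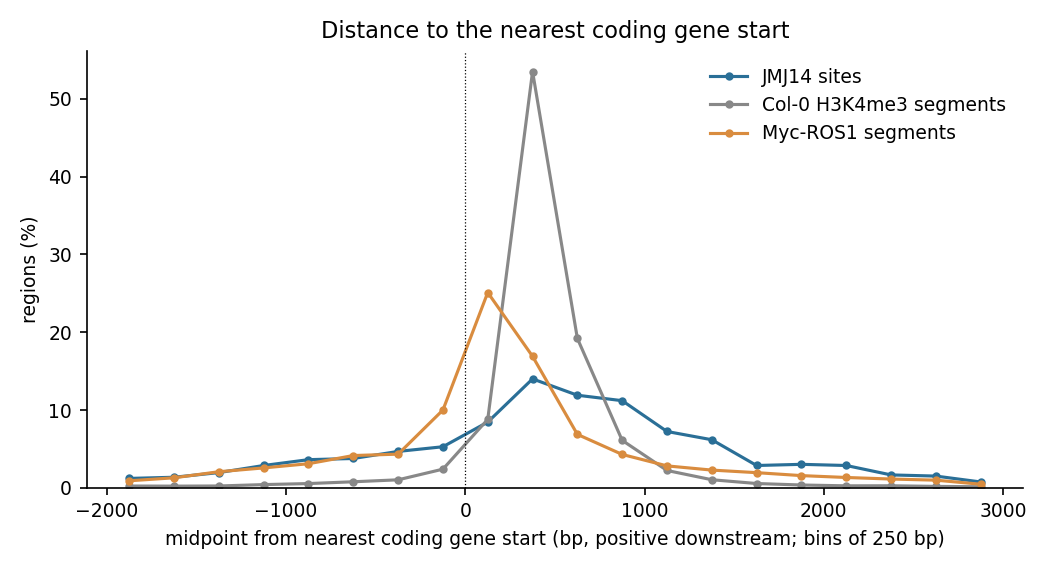
Percent of JMJ14 sites (blue), Col-0 H3K4me3 segments (grey) and Myc-ROS1 segments (orange) by the distance in bp from their midpoint to the nearest coding gene start, positive downstream, in bins of 250 bp. The H3K4me3 segments peak just past the start with a median of 396 bp, and the JMJ14 sites spread further into genes with a median of 550 bp.

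How many of the sites had an H3K4me3 peak differed between libraries. A peak overlapped 22.0% of sites in the lowest, 42.5% in the median and 58.7% in the highest of the 29 H3K4me3 libraries, and in Col-0 it was 40.3 and 42.2% in SET1 and 58.7 and 51.3% in SET11. The lists held 9647 to 28847 peaks, with 28847 and 22285 in the SET11 Col-0 lists. The shortest list had the lowest share and the longest the highest, but between them the order was not kept. SDG2-ZF in rdd replicate 1 had 39.8% with 19418 peaks, and rdr6 replicate 2 had 45.2% with 16578. The part of list size in the share was not tested. For H3K14ac the share was 38.6 and 40.6% in Col-0, with a range of 8.45 to 43.6% over 6 libraries, the lowest being rdd, whose list held 5635 peaks. For H2A.Z it was 67.0 and 41.6% in Col-0, with a range of 41.6 to 67.0% over 7 libraries. For Myc-ROS1 it was 24.3 and 41.0% in the line without SDG2-ZF and 34.2 and 33.8% in the line with it. At Col-0 H3K4me3 segments without a Myc-JMJ14 peak, the Col-0 shares were 95.1 and 95.5% for H3K14ac and 73.6 and 61.3% for H2A.Z. The Myc-ROS1 shares there were 19.8 and 18.3% without SDG2-ZF and 29.3 and 10.4% with it. Those segments were chosen for H3K4me3, so their H3K4me3 share is no background. Where an H3K4me3 peak was present it stood above the middle of its own list, at a median percentile of 50.7 to 73.5 by fold over the libraries. Myc-ROS1 peaks stood at percentiles of 67.9 to 78.6, H2A.Z peaks at 58.4 to 76.6 and H3K14ac peaks at 45.0 to 51.4.

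The sites fell into groups by the features that both Col-0 libraries shared. H3K4me3 was present in both SET1 libraries at 261 sites (39.4%), H3K14ac in both at 226 (34.1%) and H2A.Z in both at 264 (39.8%), and 112 sites had all of them (16.9%). H2A.Z without H3K4me3 or H3K14ac was found at 104 sites (15.7%), and H3K4me3 without H2A.Z at 135 (20.4%). Both Myc-ROS1 lists had a peak at 140 sites (21.1%), of which 111 also had H3K4me3. Over all libraries, 102 sites had an H3K4me3 peak in each of the 29 and 175 had none in any (26.4%). At 83 sites no library had a peak of any of the 3 histone features (12.5%). A site was wholly inside a Col-0 H3K4me3 segment in 184 cases, and 94 sites lay outside one but within 500 bp of it, 141 from there to 2000 bp away, and 167 further away. Of the 278 sites inside a coding gene that touched no segment, 99 lay in a gene with a segment at its start.

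Sites with the palindrome carried each of the 4 features less often than the other sites, in every library. For H3K4me3 the share was 13.3 to 48.9% of palindrome sites with a median of 28.7%, and 25.5 to 62.9% of the others with a median of 47.8%, and it was lower in 29 of 29 libraries. For H3K14ac the medians were 29.8 and 45.5% (lower in 6 of 6), for H2A.Z 41.5 and 59.4% (7 of 7), and for Myc-ROS1 17.9 and 40.3% (4 of 4). Of the palindrome sites, 133 had no Myc-ROS1 peak in any list (70.7%), against 200 of the 475 others (42.1%). No H3K4me3 peak in any library was found at 64 palindrome sites (34.0%) and 111 others (23.4%), and no histone feature at all at 35 of the 188 (18.6%) and 48 of the 475. The libraries read the same sites, so their number does not add independent sites, and the split was made after the palindrome share was known and carries no test. The Myc-ROS1 and Myc-JMJ14 libraries used the same antibody, and the part of that in the shared sites was not tested.

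**Figure D4:**
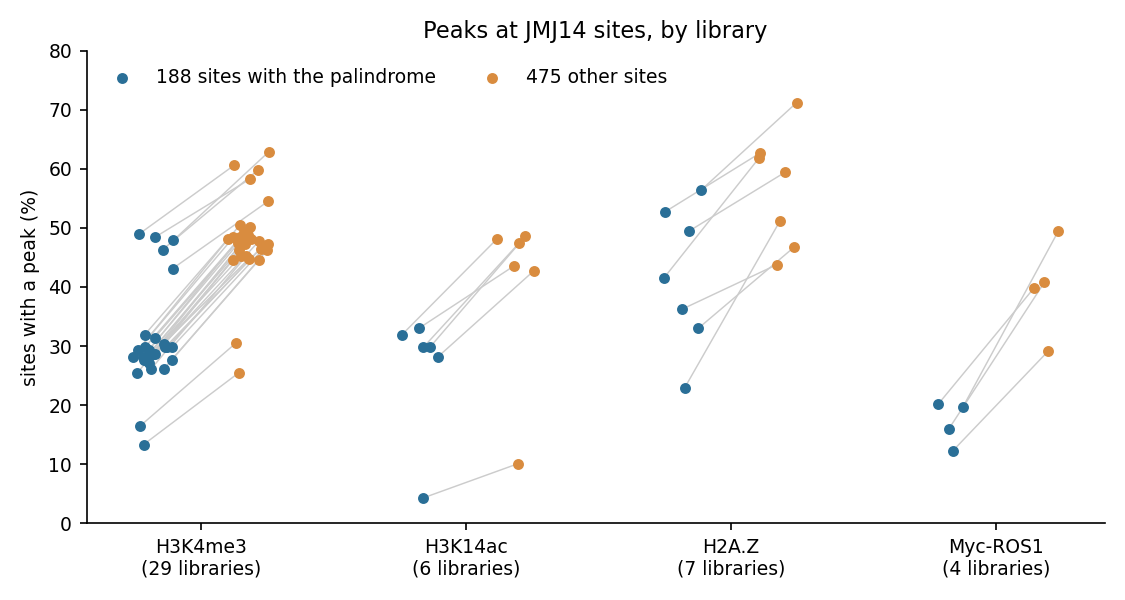
Percent of sites with a peak in each library, for the 188 sites with the palindrome in their 300 bp window (blue) and the 475 others (orange), with lines joining the values of 1 library. In all libraries of the 4 assays the blue point is below the orange one, with H3K4me3 medians of 28.7 and 47.8%.

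The strongest sites with no H3K4me3 peak in any library were AT1G50100 (chr1:18557678-18558010) and ERO1 (chr1:27214679-27215303), given above, then UBC30, the lncRNA gene AT1G04887 and ABCC12, an ABC transporter gene. UBC30 had folds of 4.82, 4.40 and 4.15 at chr5:22728291-22728802, 468 bp before its start. AT1G04887 had 6.09, 6.23 and 3.92 at chr1:3977064-3977463. ABCC12 had 5.36, 4.65 and 3.89 at chr1:10737706-10738151, 754 bp before its start. None of the 5 had an H3K14ac or H2A.Z peak either, UBC30 and AT1G04887 held the palindrome and no Myc-ROS1 peak, and ERO1 had a Myc-ROS1 peak in all 4 lists. Only 4 sites lay outside every gene region, with lowest folds of 2.86, 2.66, 2.51 and 2.50. The first of them, at chr3:7473374-7473526, held the palindrome, had no histone peak and had a Myc-ROS1 peak in 2 lists. The last 2 lay side by side at chr3:10568359-10568505 and chr3:10568629-10568797 under the same Myc-JMJ14 peaks.

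The genes that held the sites had H3K4me3 and H2A.Z peaks at their starts more often than other coding genes, but the H2A.Z difference did not pass under every choice of starts. At the starts (500 bp to either side) of the 557 site genes an H3K4me3 peak was present in 65.3% ± 7.15 (SD, n = 29 libraries) and at those of the 26887 other coding genes in 58.6% ± 6.42. The difference of 6.72 percentage points (SD 1.97) was positive in 29 of 29 libraries, from 2.01 to 10.5 (two-sided sign-flip permutation test over libraries with 100000 draws, p = 1.0e-05, the smallest they can give, adjusted p = 4.0e-05 over 4 assays). Within 250 bp of starts it was 1.57 points. All libraries read the same genes, so their number adds no independent genes, and the p-values here cover the spread between libraries only. With both gene sets limited to starts with a Col-0 H3K4me3 segment the shares were 93.7 and 95.6%, which says little, because the limit is made from peaks of 2 of the same libraries and nearly all starts then have one. For H2A.Z the shares were 70.4% ± 11.7 and 60.0% ± 14.7 (SD, n = 7), and the difference of 10.4 points was positive in 7 of 7 libraries (exact sign-flip permutation test, p = 0.0156, adjusted p = 0.0312). The 3 H2A.Z libraries of SET4 gave differences of 13.7, 19.8 and 19.2 and the 4 of SET5 and SET6 gave 4.10 to 6.48, and within 250 bp of starts the difference was 4.32 and no longer passed (exact p = 0.219). It did not pass either among starts with a Col-0 H3K4me3 segment, at 70.4 against 65.2%, where the 3 libraries of SET4 were higher at site genes and the 4 of SET5 and SET6 lower.

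For Myc-ROS1 the starts of site genes had a peak in 45.4, 59.8, 50.8 and 41.3% of cases, against 23.0, 34.0, 19.5 and 13.6% of other coding genes, in replicate 1 and replicate 1 with SDG2-ZF of SET4 and in the same order of SET7. The groups did not overlap. The difference was 26.8 points ± 3.69 (SD, n = 4), with an exact two-sided p of 0.125, which is the smallest that 4 libraries can give, and an adjusted p of 0.167. Among starts with a Col-0 H3K4me3 segment the means were 65.6 and 29.5%. H3K14ac did not separate the gene sets, with 58.7% ± 21.2 and 57.0% ± 18.4 (SD, n = 6, higher in 5 of 6 libraries, exact sign-flip permutation p = 0.188, adjusted p = 0.188), and within 250 bp of starts the difference was -9.22 points (exact p = 0.0312, the smallest possible).

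**Figure D5:**
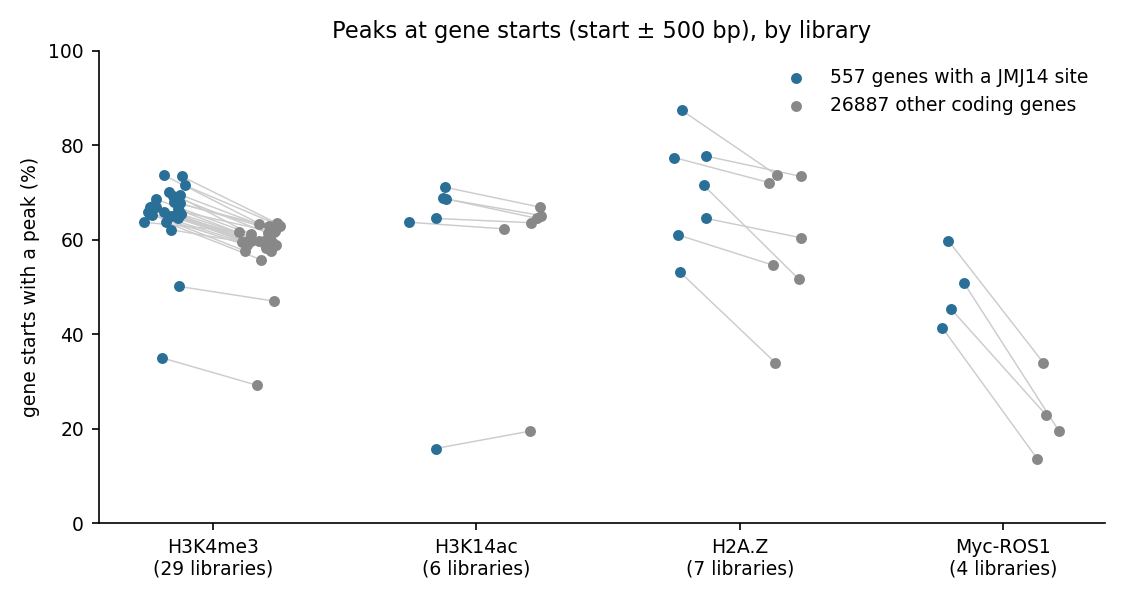
Percent of coding gene starts (500 bp to either side) with a peak in each library, for the 557 genes that held a JMJ14 site (blue) and the 26887 other coding genes (grey), with lines joining the values of 1 library. The Myc-ROS1 values were 41.3 to 59.8% and 13.6 to 34.0% and did not overlap, and the H3K4me3 difference was positive in 29 of 29 libraries. Myc-ROS1 and Myc-JMJ14 libraries used the same antibody.

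The fusions were compared with their controls at the sites to see whether plants with a TRBIP1 or SDG2 fusion differed there. The zinc finger also binds sites other than FWA, and whether the JMJ14 sites are among them was not tested. None of these tests could have passed a threshold of 0.05, so the values are given with their errors. In TRBIP1-ZF 41.9 and 41.0% of sites had an H3K4me3 peak, and in fwa 39.4 and 43.1%, a difference of 0.226 points (SE 1.94, exact two-sided permutation p = 1.00). Within SET8 it was 2.56 and within SET9 -2.11. The smallest p for 2 against 2 libraries is 0.333. With TRBIP1-dCas9-MQ1v the shares were 42.5 and 42.1%, and in fwa rdr6 42.7 and 42.5%, all of 1 set, a difference of -0.302 points (SE 0.238, exact permutation p = 0.667). SDG2-ZF had 43.0, 41.0 and 43.1% and Col-0 of SET1 40.3 and 42.2%, a difference of 1.13 points (SE 1.19, exact permutation p = 0.5, smallest possible 0.1). SDG2-ZF in rdd had 39.8 and 43.6% and rdd 39.2 and 26.5%, so that the groups did not overlap. The difference was 8.82 points (SE 6.61, exact permutation p = 0.333, the smallest possible), with 0.603 within SET6 and 17.0 within SET7. The groups were also apart at Col-0 H3K4me3 segments without a Myc-JMJ14 peak, so the split was not particular to the sites. There SDG2-ZF in rdd had 96.4 and 98.5%, and both rdd libraries lay lower, with 82.4% in SET7. The SDG2-ZF in rdd lists held 19418 and 18063 peaks and the rdd lists 16158 and 12992. The study lists fewer reads for the rdd library of SET7. The part of list size and reads in the difference was not tested. With equal numbers of peaks the difference at the sites was 2.87 points.

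H3K14ac was present at 43.6 and 42.4% of sites in SDG2-ZF and at 38.6 and 40.6% in Col-0, so that the groups did not overlap, and the difference was 3.39 points (SE 1.15, exact permutation p = 0.333, the smallest possible). At Col-0 H3K4me3 segments without a Myc-JMJ14 peak the groups did not overlap either, at 96.8 and 96.7% in SDG2-ZF and 95.1 and 95.5% in Col-0. The SDG2-ZF lists held 24156 and 23900 peaks and the Col-0 lists 22435 and 23467, and the part of this in the difference was not tested. With equal numbers of peaks the difference at the sites was 2.56 points. It kept its sign under all 9 alternatives, which use the same libraries, all within SET3. H2A.Z differed between sets more than between groups: SDG2-ZF minus Col-0 was -17.3 points within SET4 and 18.3 within SET5. Myc-ROS1 with SDG2-ZF minus without was 9.95 within SET4 and -7.24 within SET7. After adjustment over the 14 tests, 7 of shares and 7 of median fold percentiles, each p was 1.00. The percentile difference for TRBIP1-ZF was 1.99 (SE 11.7), an error that holds the gap between the sets, and it was 2.86 within SET8 and 1.12 within SET9. The percentile differences were -1.78 (SE 3.22) for TRBIP1-dCas9-MQ1v, -4.19 (SE 2.50) for SDG2-ZF and -2.63 (SE 6.98) for SDG2-ZF in rdd in H3K4me3. They were 3.76 (SE 2.02) in H3K14ac, 4.05 (SE 9.80) in H2A.Z and 1.82 (SE 6.36) in Myc-ROS1. With so few libraries, and peaks in place of coverage, a change of level at a site that kept its peak would not be seen in the shares.

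Genes of photosynthesis held sites most often among 14 gene lists. A site lay in the region of 2.74% of the 27444 nuclear coding genes (753 genes), and of 10 of the 14 photosynthesis genes: RBCS1A, LHCB1.1 (CAB2), LHCB1.3 (CAB1), LHCB2.1, LHCB3 and LHCA4 for antenna proteins and Rubisco, PSAD-1 and PSAF for photosystem I, and PSBO1 and PSBP-1 for the oxygen-evolving complex. Their sites had folds of 2.49 to 7.86 in the Myc-JMJ14 list, and an H3K4me3 peak in 21 to 29 of 29 libraries. Among them only the site of LHCB3 held the palindrome in its 300 bp window. The longer site of CAB1 held 1 copy beyond its window. Each of these genes also had a Myc-ROS1 peak at its site in at least 1 of 4 lists. Counting any peak in the gene region, the 14 genes had one in 10, 13 and 14 cases in the 3 Myc-JMJ14 lists, in 12 and 13 cases in the Myc-ROS1 lists, and in 0 cases in the untagged list. The same counts over all coding genes were 5.84, 19.8 and 13.6%, 28.9 and 26.3%, and 0.627%. As a check of the tissue label, 14 and 13 of the photosynthesis genes had H3K4me3 at the start in the Col-0 libraries of SET1, against 1 of 16 floral organ identity and seed maturation genes in each.

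Few genes of the other lists held a site. Among JMJ14 partners it was NAC052, 1 of 7, with folds of 2.99, 4.91 and 4.25 in a coding exon, an H3K4me3 peak in all 29 libraries and no palindrome. Among salicylic acid defence genes it was PR2 (BGL2) and CBP60G, 2 of 12, of which PR2 had folds of 4.81, 5.61 and 3.95, the palindrome, an H3K4me3 peak in 15 libraries and an H2A.Z peak in all 7. The site of CBP60G lay 2903 bp past its start and overlapped the neighbouring gene more. Among flowering genes it was SOC1, a floral integrator, 1 of 11, with 4.77, 5.04 and 4.25 in the 3′ UTR, 3522 bp from the start, and an H3K4me3 peak in 1 library. PIF4, a growth-promoting light signalling factor, was 1 of 9 and held the palindrome in a coding exon, with 3.01, 4.43 and 2.39 and H3K4me3 in 24 libraries. AOS, the allene oxide synthase of jasmonate synthesis, was 1 of 8, and LDL2, a histone demethylase gene, 1 of 9, with a site that overlapped the neighbouring gene more. Counting any peak in the gene region, the untagged list had one in 3 of 7 JMJ14 partners and 4 of 9 H3K4 demethylase genes, against 0.627% of all coding genes. The Myc-JMJ14 list had one in 4 and 5 of them. No gene of the lists for H3K4 methyltransferases (7), the circadian clock (18), cold response (5), RNA-directed DNA methylation (12), DNA demethylation (5), floral organ identity (9) or seed maturation (7) held one. Of 344 genes whose annotated product names a ribosomal protein, 3 did (0.872%). The lists were fixed with earlier results of these data known and carry no test.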

How the data were processed

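ChIP-seq peak lists from leaf tissue were used as deposited. Per the labels and the study's methods, the authors trimmed reads with Trim Galore 0.6.5, mapped them to TAIR10 with Bowtie2 2.1.0, removed duplicates with SAMtools 1.9 and called peaks per library with MACS2 2.2.1, with no control library named. The deposited fold is a ratio of the peak to its local background, and the authors' p-values and q-values are given as −log10 values; they were used for ranking and for stricter limits only. Read depth is not part of the lists. The read totals stated by the study entered no calculation and are mentioned only for the H3K4me3 rdd library of SET7. The number of peaks per list is given instead. Lines repeating an interval counted once, with the highest fold, and organelle peaks were left out. No peak passed a chromosome end of the RefSeq assembly TAIR10.1, which gave genes and sequence.

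Peaks and sites overlapped where they shared 1 bp. Fold percentiles were taken within a list. Conditions were compared over libraries with exact two-sided permutation tests, and gene sets with paired sign-flip tests, both adjusted by the Benjamini-Hochberg method (Python 3, numpy, scipy). The helpers were tested on simulated data, where 200 of 200 planted sites were recovered. Motif windows were 300 bp. The members and gene lists were chosen with earlier results of these data known. The text names the 20 sites with the highest lowest fold, the 5 strongest without H3K4me3, all 4 outside gene regions, FWA, JMJ14 and list members; the 6 strongest telobox sites are printed, and the palindrome sites printed were chosen after their values were seen. Alternatives were a −log10 q of at least 5, equal peak numbers, other lengths, windows and overlaps, a replicate block and leaving out libraries. The untagged Col-0 lists of SET4 and SET7 were not analysed here. Intervals cover counting error only.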

Additional observations from a re-analysis of the deposited data

Results flagged for a closer look

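Among the 4 libraries of SDG2(H1866K)cd, replicate 3 stood apart from the others in both measures read at the sites. It had an H3K4me3 peak at 22.0% of sites, against 56.0, 55.5 and 57.3% in the others, and a median fold percentile of 50.7, against 64.4, 66.3 and 67.1. Its list held 9647 peaks, against 23443, 23067 and 27855. This group entered no comparison between conditions, and only 1 group was large enough for such a test, which flags about 1 in 20 groups by chance. Without lists under 10000 peaks the H3K4me3 difference at gene starts was 6.76 points.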

How the results depend on the processing

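The number of sites, 663, was 204 from peaks with a −log10 q of at least 5, 271 with a minimum length of 300 bp, 382 with equal numbers of peaks in the 3 lists, 333 without sites under a Myc-ROS1 peak, and 703 to 1606 without 1 of the 3 lists. The share within 500 bp of a coding start, 32.4%, was 28.4% from peaks with a −log10 q of at least 5 and 13.7% within 250 bp. The telobox share, 12.1%, was 19.8% with the shorter core. The palindrome share, 28.4%, was 39.9% without sites under a Myc-ROS1 peak, 12.2% in a 100 bp window and 18.7 to 26.9% without 1 of the 3 lists. These palindrome alternatives, and those at gene starts with both gene sets limited, were chosen after seeing the data.

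At gene starts, the H3K4me3 difference of 6.72 points was 7.95 with Col-0 libraries only, which could not pass the threshold with so few libraries, -30.2 against other genes with a Col-0 H3K4me3 segment at the start (a construction that limits one gene set only) and -1.87 with both sets so limited, where the Col-0 libraries that define the limit are among those compared. For H3K14ac, 1.77 became -0.874 with stricter mark peaks, -9.22 within 250 bp, -26.8 against other genes with a segment and -6.78 with both sets limited. For H2A.Z, 10.4 became 4.32 within 250 bp, 5.20 against other genes with a segment, 5.27 with both sets limited and 8.92 with Col-0 libraries only, none of which passed. Without 1 library the ranges were 6.59 to 6.89, 1.28 to 2.87, 8.85 to 11.5 and, for Myc-ROS1, 25.3 to 28.2 points.

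None of the 14 comparisons of conditions could pass its test. The sign held under every alternative for both H3K14ac measures, the SDG2-ZF percentile and the SDG2-ZF share in rdd, and turned under at least 1 for the others. With peaks covering at least 50% of a site, the TRBIP1-ZF percentile difference was -0.606, the TRBIP1-dCas9-MQ1v share difference 0.302, the H2A.Z share difference 0.352 and the Myc-ROS1 percentile difference -0.231. With equal numbers of peaks the SDG2-ZF share difference was -1.96, the H2A.Z share difference 4.42 and the Myc-ROS1 percentile difference -9.15. With mark peaks at a −log10 q of at least 5 the TRBIP1-dCas9-MQ1v percentile difference was 0.248 and the Myc-ROS1 one -7.45, and without sites under a Myc-ROS1 peak the TRBIP1-ZF one was -11.7. Without 1 library, share differences ran from -1.66 to 2.11 for TRBIP1-ZF, where leaving out a library also unbalances SET8 and SET9, -13.9 to 11.4 for H2A.Z and -7.01 to 9.73 for Myc-ROS1. Percentile differences ran from -6.72 to 10.7 for TRBIP1-ZF, -4.56 to 1.00 for TRBIP1-dCas9-MQ1v, -9.51 to 4.26 for SDG2-ZF in rdd, -4.82 to 12.9 for H2A.Z and -3.52 to 7.16 for Myc-ROS1. With a replicate block the H2A.Z share difference was 3.70 in place of -1.26, and no other sign turned. The numbers pair only 2 libraries in each comparison, with correlations of their deviations over sites of -0.0959 to 0.318, and were not taken as pairs. Of 224 recomputed values, 178 kept their sign and their side of the threshold or stayed close to the reported value, and 29 changed sign. The cause of these changes was not tested. The lists hold no read depth, so a weak peak missed by the caller cannot be told from an absent one.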
